A study of Mus musculus with 4 samples.

Results

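The nuclear genes of respiratory complex I were examined across the cells of the mouse retina and choroid. The members were all genes whose symbol starts with Nduf, 47 of the 24783 genes in the table, and they held 1803353 of 300734981 unique molecular identifiers (UMIs, each standing for 1 captured RNA molecule), or 0.6%. By role the members were 7 core subunits of the matrix arm, 9 accessory subunits of the matrix arm, 19 accessory subunits of the membrane arm, the acyl carrier Ndufab1, 8 assembly factors (Ndufaf1 to Ndufaf8), Ndufa4, Ndufa4l2 and Ndufb1-ps. The first 36 of these, the structural subunits, were also added up to 1 complex I level per cell class and library. All 47 members had at least 100 UMIs over all cells, between 3239 for Ndufaf1 and 182851 for Ndufa4.

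Complex I (NADH:ubiquinone oxidoreductase) takes electrons from NADH, passes them through iron-sulphur clusters in its matrix arm to ubiquinone, and pumps protons through its membrane arm. The core subunits that carry out this chemistry come partly from nuclear genes (such as Ndufv1, Ndufs1 and Ndufs7) and partly from the mitochondrial genome (the mt-Nd genes), while the accessory subunits surround and stabilise the core. The retinal pigment epithelium (RPE) is known for strong oxidative metabolism, whereas photoreceptors also make much lactate by glycolysis. Ndufa4 was first assigned to complex I and is now known as a subunit of complex IV (cytochrome c oxidase). Its paralogue Ndufa4l2 is a gene induced by hypoxia that also marks pericytes in mouse tissues.

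The study used wild-type mice in 4 groups with 1 droplet single-cell library each. The aged CNV group consisted of mice over 18 months old, whose eyes were burned with a laser of 532 nm wavelength (power 200 mW, spot size 100 µm, pulses of 0.150 s) and taken 3 days later. Such burns break Bruch's membrane under the RPE and induce choroidal neovascularisation (CNV). The aged control group was over 18 months old with no laser, the young CNV group was 6 to 8 weeks old with the same laser treatment, and the young control group was 6 to 8 weeks old with no laser. Retina and choroid-sclera were dissociated separately with papain and mixed, after rods had been depleted from the retina with CD73 antibody and magnetic beads. How many mice went into a library was not given in the sources used here. With 1 library per group there was no replicate and no test: every interval below is a 95% interval that covers counting error only, and every difference is one between 2 libraries.

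After removal of likely doublets, 7459, 6430, 10577 and 11124 cells were used from the aged CNV, aged control, young CNV and young control libraries. The totals over all cells of a library lay between 50848238 and 111908519 UMIs. Median UMIs per cell were 6875 in aged CNV, 6428 in aged control, 7223 in young CNV and 2593 in young control, where rod-like cells made up 5819 cells. Of 36577 cell barcodes, 124 occurred in more than 1 library. Cells were clustered without any Nduf or mitochondrial gene and the clusters were named from marker lists, so class names carry "-like". No marker list held an Nduf gene. All 8 RPE markers were detected in the RPE-like cells of every library, and their summed level lay between 71805 and 111022 CPM. The cluster was named by these same markers, so their level describes the class and does not test its name. The classes RPE-like and cone-like were 1 cluster each, whereas different clusters held most rod-like, fibroblast-like, smooth muscle-like and macrophage/monocyte-like cells in different libraries. The 4 comparisons share libraries (each library enters 2 of them), so they are not independent of each other.

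The summed complex I level was highest in RPE-like cells in each of the 4 libraries, among classes with at least 50 cells. Levels are in CPM, the UMI count of the genes scaled by all UMIs of the class in that library. RPE-like cells had 11819 CPM in aged CNV, 10474 CPM in aged control, 15026 CPM in young CNV and 15715 CPM in young control. Melanocyte-like cells, the pigment cells of the choroid, came next in the young libraries, with 9030 CPM in young CNV and 8755 CPM in young control. Cone-like cells had 4947, 4275, 8886 and 8528 CPM in aged CNV, aged control, young CNV and young control. Smooth muscle-like cells had 5354, 5269, 7866 and 7783 CPM in the same order of libraries. Rod-like cells lay below cone-like cells in every library, at 3893, 2700, 6197 and 4362 CPM. Macrophage/monocyte-like cells had 3504, 3256, 4552 and 3517 CPM, below cone-like cells in every library, but above rod-like cells in aged control. Neutrophil-like cells of aged CNV had 3649 CPM, and T-like cells had 3276 CPM in aged CNV, 2859 CPM in aged control and 5303 CPM in the 50 cells of young CNV. The lowest level in the young libraries was that of erythroid-like cells, 582 CPM in young CNV and 951 CPM in young control.

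**Figure D1:**
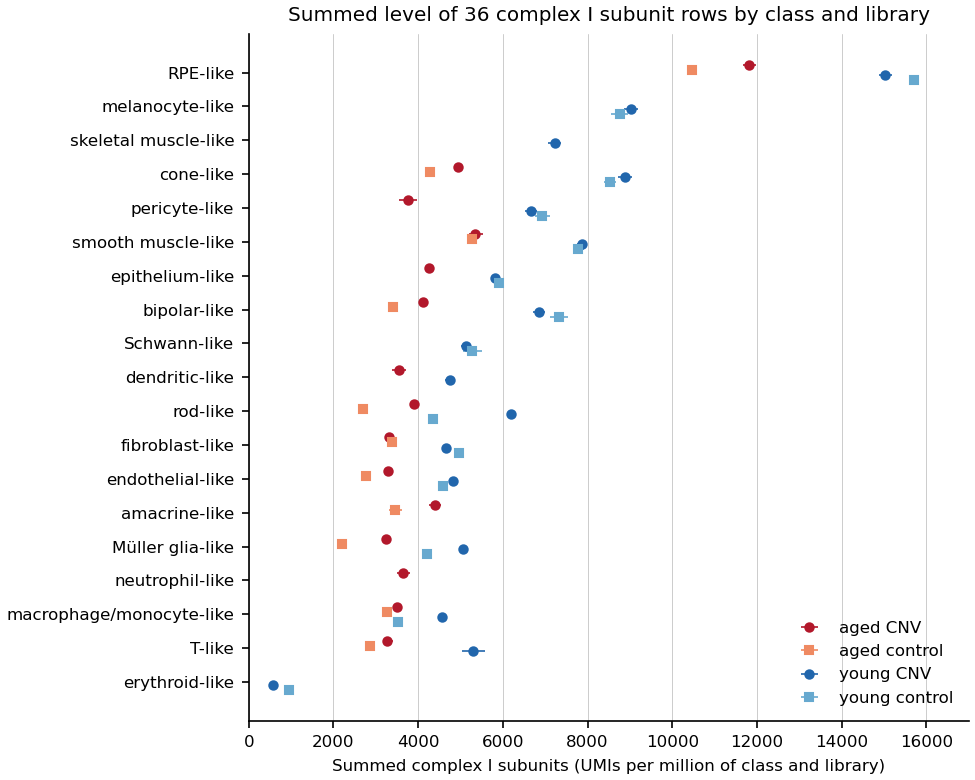
Summed level of the 36 nuclear complex I subunits (CPM) by cell class, with 1 point per library and 95% counting intervals. RPE-like cells sat at 10474 to 15715 CPM, above every other class with at least 50 cells in the same library.

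Abundant members of each role were the following. Among the core subunits of the matrix arm, Ndufs7, which carries the last iron-sulphur cluster before ubiquinone, had 221, 199, 261 and 273 CPM in RPE-like cells of aged CNV, aged control, young CNV and young control, against 82.3, 50.7, 136 and 93.6 CPM in rod-like cells. Ndufv2, an iron-sulphur protein of the NADH-oxidising module, had 168, 144, 234 and 229 CPM in RPE-like cells and 118, 106, 169 and 130 CPM in rod-like cells. Both were higher in RPE-like than in rod-like cells of every library. Among the accessory subunits of the matrix arm, Ndufa2 had 535, 455, 607 and 641 CPM and Ndufa7 had 480, 461, 717 and 761 CPM in RPE-like cells. In the membrane arm, Ndufb11, an X-linked subunit, had 744, 757, 1110 and 1205 CPM in RPE-like cells, against 206, 117, 316 and 202 CPM in rod-like cells. Ndufa13 (also known as GRIM-19) had 561, 505, 883 and 880 CPM in RPE-like cells and Ndufb9 had 498, 400, 508 and 509 CPM. Ndufab1, the mitochondrial acyl carrier protein, had 280, 224, 322 and 346 CPM there. Among the assembly factors Ndufaf8, the partner of Ndufaf5, had 174, 164, 177 and 180 CPM in RPE-like cells, and Ndufaf2 had 40.6, 36.7, 47.4 and 56.9 CPM. UMI counts depend on how well each transcript is captured, so these levels compare a gene between classes and libraries, not genes with each other.

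The make-up of the complex I signal differed between pairs of class and library. Each subunit's share of the summed UMIs was taken over 57 pairs of class and library with at least 50 cells. Ndufs1, the largest core subunit of the NADH-oxidising module, varied most: it made up 3.59% of the sum in rod-like cells of aged control and 0.296% in dendritic-like cells of young CNV. Ndufv3, an accessory subunit of the same NADH-oxidising module, reached 5.71% in RPE-like cells of aged control, and Ndufa8, a subunit on the intermembrane-space side, reached 6.22% in endothelial-like cells of young control. Ndufa1 ranged from 0.326% in pericyte-like cells of aged CNV, from few UMIs, to 4.96% in T-like cells of young CNV. These spreads mix class with age and laser, and their parts were not told apart. The steadiest were Ndufab1, Ndufa2 and Ndufb10, whose shares had standard deviations of 0.22, 0.23 and 0.23 on the log2 scale, against 0.85 for Ndufs1.

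Complex I transcripts made up a smaller share of the RNA in aged than in young cells in most classes. Without laser, the summed level of aged control was at most 0.8 of that of young control in 8 of 9 classes, with ratios of aged control over young control from 0.464 to 0.926 and a median of 0.619. The ratio was lowest in 3 retinal classes: 0.464 (0.449 to 0.480) in bipolar-like cells, 0.501 (0.491 to 0.511) in cone-like cells and 0.524 (0.508 to 0.540) in Müller glia-like cells. It was 0.604 in endothelial-like, 0.619 (0.606 to 0.632) in rod-like, 0.666 in RPE-like, 0.677 in smooth muscle-like and 0.680 in fibroblast-like cells. Macrophage/monocyte-like cells were the exception, at 0.926 (0.886 to 0.967), but their largest cluster differed between the libraries. In aged control 46 of 135 such cells came from a cluster at 3783 CPM over all libraries. In young control 55 of 106 came from a cluster at 2752 CPM. The part of this cluster mix in the ratio was not tested. Within single clusters of at least 50 cells in both libraries the ratio was below 1 in 11 of 11, from 0.489 to 0.931. The highest was that of an unnamed cluster, with an interval from 0.839 to 1.03. No smooth muscle-like or macrophage/monocyte-like cluster had enough cells in both libraries to be among them.

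Counted by member and class, 213 of 397 values (53.7%) were at least 1.5-fold lower in aged control than in young control and 0 were at least 1.5-fold higher. Over all genes of the same classes 14.1% of values were as much lower and 16.7% as much higher. The count was 37 of 46 members in cone-like cells, 37 of 45 in bipolar-like cells, 36 of 44 in Müller glia-like cells and 28 of 46 in rod-like cells. It was 17 of 46 in RPE-like cells, where 6.23% of all genes were as much lower, and 3 of 37 in macrophage/monocyte-like cells, where 11.2% of all genes were.

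After laser the aged library was lower again. The summed level of aged CNV was at most 0.8 of that of young CNV in 13 of 13 classes, with ratios from 0.557 to 0.787 and a median of 0.681. The ratio was 0.557 (0.543 to 0.570) in cone-like cells, 0.565 (0.532 to 0.60) in pericyte-like cells, 0.60 in bipolar-like and 0.628 in rod-like cells. In macrophage/monocyte-like cells it was 0.770 (0.756 to 0.783) and in RPE-like cells 0.787 (0.774 to 0.800). Of 543 values by member and class, 236 (43.5%) were at least 1.5-fold lower in aged CNV than in young CNV and 5 were at least 1.5-fold higher, beside 12% lower and 20% higher over all genes. Within single clusters the ratio was below 1 in 16 of 16, from 0.522 to 0.830, with no pericyte-like, smooth muscle-like, T-like or dendritic-like cluster among them.

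**Figure D2:**
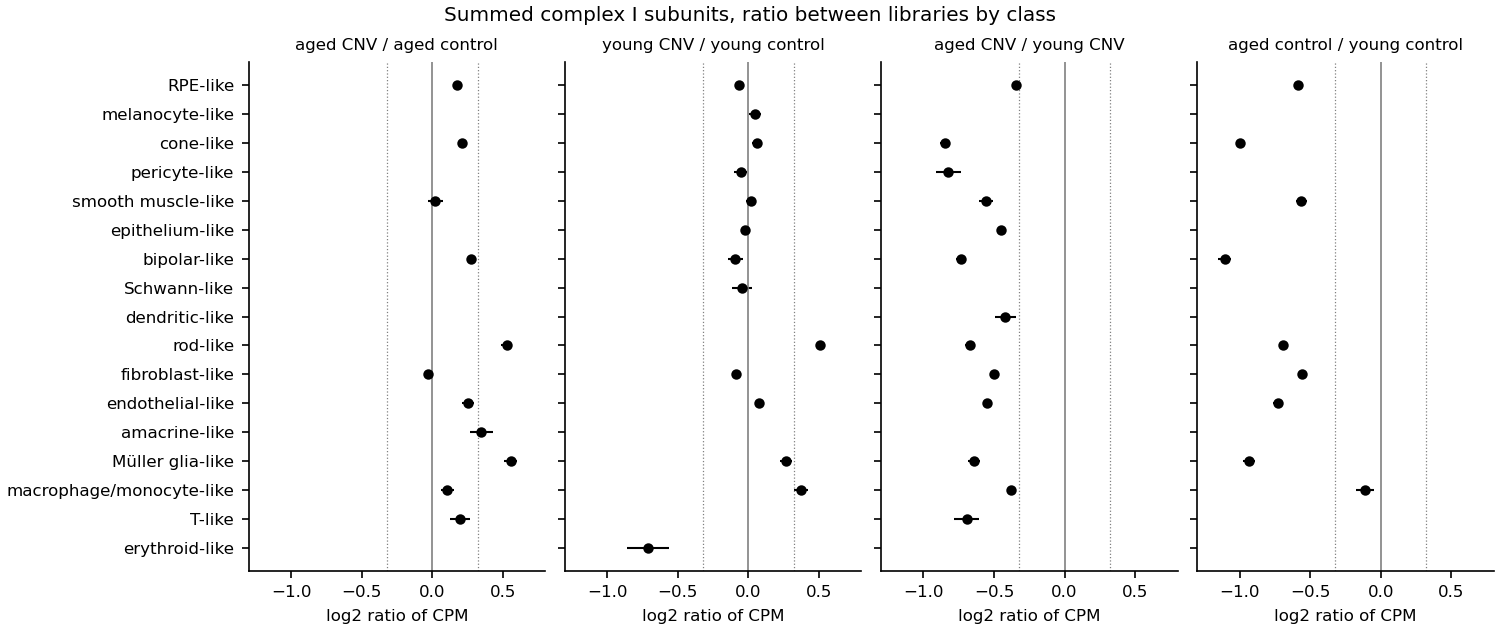
Ratio of the summed complex I level (log2 scale) by cell class for the 4 comparisons of libraries, with 95% counting intervals. Aged over young libraries lay below 0 in every class, while aged CNV over aged control lay above 0 in all classes but fibroblast-like cells.

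In 9 classes with at least 50 cells in every library the order of all 4 libraries could be read. Both aged libraries lay below both young libraries for 264 of 324 pairs of subunit and class (81.5%), and above them for 7 pairs. Over all genes 23.5% of pairs had both aged libraries below and 36.4% above. The count was 34 of 36 subunits in cone-like, bipolar-like, endothelial-like and fibroblast-like cells, 28 in RPE-like, 22 in rod-like and 15 in macrophage/monocyte-like cells. For the assembly factors it was 33 of 69 pairs below and 10 above.

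The roles differed in how far they were lower with age. In aged control against young control, 111 of 171 values of membrane-arm accessory subunits were at least 1.5-fold lower, and the median of the class medians was -0.81 on the log2 scale. For the matrix arm the counts were 30 of 61 for core subunits (median -0.63) and 41 of 81 for accessory subunits (-0.57). Ndufab1 was as much lower in 7 of 9 classes. The assembly factors named Ndufaf had 11 of 55 values lower and a median of -0.23. After laser the counts for aged CNV against young CNV were 133 of 240 (median -0.61) in the membrane arm, 24 of 81 (-0.42) for matrix-arm core, 42 of 113 (-0.40) for matrix-arm accessory and 10 of 66 (-0.18) for assembly factors. The median over all genes was 0.08 without laser and 0.14 after laser. Over all genes 14.1% of values were as much lower without laser and 12% after laser. The shares of the assembly factors, 20% and 15.2%, were not far above these. No test of the difference between roles was made, since the members of a role are not replicates.

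Ndufa1, a small X-linked membrane-spanning subunit, was at least 1.5-fold lower with age in 8 of 9 classes without laser and in 13 of 13 after laser. The exception was macrophage/monocyte-like cells without laser, with 77.2 CPM in aged control and 102 CPM in young control (ratio 0.757, 0.574 to 0.999). In RPE-like cells Ndufa1 had 117 CPM in aged CNV and 133 CPM in aged control, against 414 CPM in young CNV and 386 CPM in young control. In rod-like cells Ndufa1 had 36.1 and 21.9 CPM in aged CNV and aged control, against 123 and 65.9 CPM in young CNV and young control. In cone-like cells the values were 37.3 and 30.6 CPM against 157 and 158 CPM, and in fibroblast-like cells 36.3 and 50.5 CPM against 110 and 127 CPM. Both aged libraries lay below both young ones in all 4 classes. The ratio of Ndufa1 was 0.344 (0.317 to 0.374) for aged control over young control and 0.283 (0.244 to 0.326) for aged CNV over young CNV in RPE-like cells. Only 4 Ndufa1 UMIs were counted in the pericyte-like cells of aged CNV, so the ratio of 0.0719 to young CNV there has the wide interval 0.0194 to 0.187.

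Ndufa3, Ndufb3 and Ndufb4, further small subunits of the membrane arm, were lower in nearly as many classes. Ndufa3 had 160 and 155 CPM in RPE-like cells of aged CNV and aged control, against 377 and 407 CPM in young CNV and young control, and was at least 1.5-fold lower in 9 of 9 classes without laser and 12 of 12 after laser. Ndufb4 had 308 and 305 CPM in RPE-like cells of the aged libraries, against 638 and 647 CPM in the young ones. Ndufb3 had 244 and 302 CPM there, against 478 and 523 CPM. Each of Ndufb3 and Ndufb4 was as much lower in 8 of 9 classes without laser and 12 of 12 after laser. Ndufb1-ps, named as a pseudogene and listed in GENCODE M21 as a long non-coding RNA of a bidirectional promoter, was lower in 9 of 9 and 13 of 13 classes, with 70.4 and 82.0 CPM in RPE-like cells of aged CNV and aged control, against 253 and 301 CPM in young CNV and young control. Its exons overlap Cpsf2 on the other strand. For the promoters described below, the RefSeq gene Ndufb1, a membrane-arm accessory subunit, was matched to Ndufb1-ps. Whether the UMIs of Ndufb1-ps stand for that subunit was not tested.

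**Figure D3:**
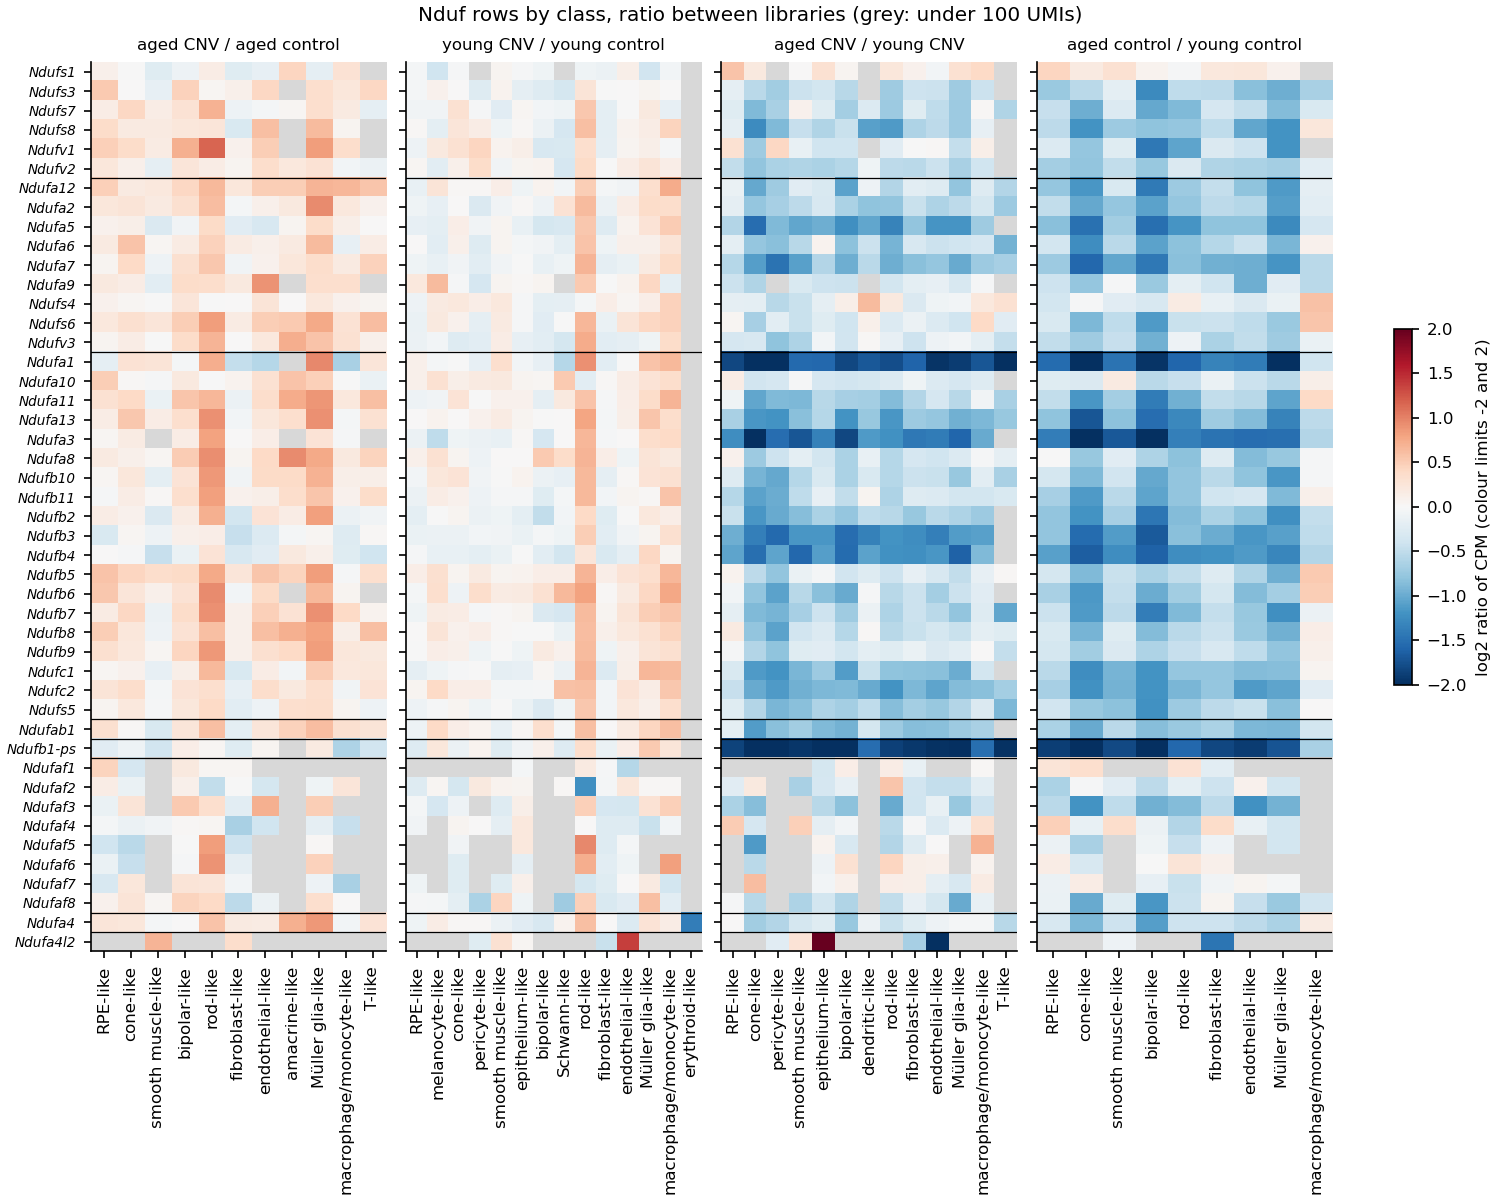
Log2 ratio of each member by class for the 4 comparisons, ordered by role, for the members described here. Colour limits are -2 and 2, and grey marks values under 100 UMIs. The strips of Ndufa1, Ndufa3 and Ndufb1-ps lie below 0 in every class of both age comparisons, whereas Ndufs1 lies between -0.05 and 0.57.

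Other members were not at least 1.5-fold lower with age in any class, with or without laser: Ndufs1, Ndufs4, Ndufa10, Ndufaf1, Ndufaf6 and Ndufaf7. In RPE-like cells Ndufs1 had 79.1 CPM in aged CNV and 73.8 CPM in aged control. It had 53.3 and 55.0 CPM in young CNV and young control. Both aged libraries were thus higher, as they were for 51.1% of all genes in RPE-like cells. The Ndufs1 ratio there was 1.34 (1.14 to 1.58) without laser and 1.49 (1.17 to 1.88) after laser. On the log2 scale the lower bounds were 0.19 without laser and 0.23 after laser. Scaling by TMM factors lowered the log2 ratios in RPE-like cells by 0.23 without laser and 0.30 after laser. Each shift exceeds its bound, so intervals above 1 depend on the scaling. In rod-like cells Ndufs1 had 108, 96.9, 92.4 and 98.5 CPM in aged CNV, aged control, young CNV and young control. Ndufs4, an accessory subunit whose loss causes an encephalopathy in mice, had 198 and 199 CPM in rod-like cells of aged CNV and aged control, against 173 and 177 CPM in young CNV and young control. Exons of Ndufs1 overlap those of Eef1b2, a translation factor gene, on the other strand, and whether counting used strand was not given in the sources used here. Eef1b2 had 315 and 261 CPM in RPE-like cells of aged CNV and aged control, against 345 and 306 CPM in young CNV and young control.

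The promoters of 3 of these genes are shown because Ndufb4 and Ndufa1 were among the subunits lowest in aged libraries and Ndufs4 among those that were not. The sequences are from RefSeq on GRCm38.p6 and run 5′ to 3′ on the gene's strand over 300 bases, from 250 before to 50 after the annotated start. Capitals mark letters that match the NRF1 or the YY1 motif on either strand, both transcription factors known to act at genes of the respiratory chain. Ndufb4 lies at chr16:37654319-37654618 (minus strand), Ndufs4 at chr13:114388045-114388344 (minus strand) and Ndufa1 at chrX:37191189-37191488 (minus strand).
Ndufb4: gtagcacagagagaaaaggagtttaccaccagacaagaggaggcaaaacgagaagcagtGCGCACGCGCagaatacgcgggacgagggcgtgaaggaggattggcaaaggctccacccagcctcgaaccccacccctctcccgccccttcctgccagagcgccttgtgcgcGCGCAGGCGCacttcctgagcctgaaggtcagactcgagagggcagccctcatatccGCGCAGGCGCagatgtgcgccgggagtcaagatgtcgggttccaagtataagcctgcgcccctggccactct
Ndufs4: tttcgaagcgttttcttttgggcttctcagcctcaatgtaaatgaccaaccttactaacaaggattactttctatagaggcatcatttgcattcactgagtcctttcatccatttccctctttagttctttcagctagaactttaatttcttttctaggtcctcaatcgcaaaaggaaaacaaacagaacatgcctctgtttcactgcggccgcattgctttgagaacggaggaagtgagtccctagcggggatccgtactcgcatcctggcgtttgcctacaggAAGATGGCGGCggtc
Ndufa1: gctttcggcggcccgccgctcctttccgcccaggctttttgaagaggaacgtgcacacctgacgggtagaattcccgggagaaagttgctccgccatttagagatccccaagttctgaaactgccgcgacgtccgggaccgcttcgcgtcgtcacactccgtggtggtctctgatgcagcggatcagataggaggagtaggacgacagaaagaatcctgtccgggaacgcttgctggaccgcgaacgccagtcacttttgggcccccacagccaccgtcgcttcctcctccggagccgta
The Ndufb4 window held 3 NRF1 matches, the Ndufs4 window 1 YY1 match, and the Ndufa1 window none of the letters searched. Among the 41 of 47 members with a promoter in the table, 9 (22%) held the NRF1 letters, beside 4.78% of 27025 promoters of the same length, and 5 (12.2%) held the YY1 letters, beside 1.07%. The letters CCGGAAGTG (GABP) were found in 1 member (Ndufs3), beside 2.06% of all promoters, and TCAAGGTCA (oestrogen-related receptors) in 0, beside 0.407%. The members with the NRF1 letters were Ndufa5, Ndufa6, Ndufa8, Ndufa11, Ndufb4, Ndufs5, Ndufs6, Ndufaf4 and Ndufaf5. A match of letters is a description and not evidence of binding.

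The composition of the libraries moved with age as well. In RPE-like cells, genes spanning over 100 kb took 8.54% and 9.87% of UMIs in aged CNV and aged control, against 5.87% and 6.47% in young CNV and young control. In rod-like cells these shares were 31.9% and 33.9%, against 23.4% and 26.7%. Genes spanning at most 20 kb took 59.2% and 56.1% in RPE-like cells of aged CNV and aged control, against 67.6% and 66.6% in young CNV and young control. With only the UMIs of genes spanning at most 20 kb as the denominator, chosen after seeing these shares, the log2 ratio of the sum was below 0 in 8 of 9 classes without laser, from -0.50 to 0.07 with a median of -0.36, and in 13 of 13 classes after laser, from -0.41 to -0.01 with a median of -0.29. Among all genes with at most 1 kb of exons the median log2 ratio over classes was -0.55 without laser, beside -0.79 for the subunits of that length. For genes with over 2 kb of exons it was 0.15, beside -0.50 for the subunits. After laser the values were -0.43 beside -0.61 and 0.18 beside -0.35. Across the 34 to 36 subunits tested in a class, which share that class's libraries, the log2 ratio without laser and exon length had Spearman correlations from -0.05 to 0.51 with a median of 0.31. UMIs of rod genes in other classes also differed: the 15 rod genes together had 270 and 490 CPM in fibroblast-like cells of aged CNV and aged control, against 265 and 1965 CPM in young CNV and young control. TMM scaling shifted the log2 ratios of all genes in a class by -0.13 to 0.23 without laser (over 0.1 in size in 5 of 9 classes) and by -0.04 to 0.43 after laser (10 of 13 classes), relative to the class totals used here. In the laser comparisons the shifts were -0.09 to 0.11 in the aged and -0.53 to 0.03 in the young mice. Each shift is an amount taken off the log2 ratio, so a positive shift lowers it. The part of transcript length, library composition and free RNA in the age differences was not tested, and age cannot be told apart from the library.

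In the aged mice, complex I transcripts were higher after laser in rod-like, Müller glia-like and amacrine-like cells. The summed level in Müller glia-like cells was 3245 CPM in aged CNV and 2208 CPM in aged control, a ratio of 1.47 (1.43 to 1.52). In rod-like cells the ratio was 1.44 (1.40 to 1.48), and in amacrine-like cells, with 82 and 52 cells, 1.27 (1.20 to 1.34). The other 8 of 11 classes lay inside the limits of 25% higher and 0.8 of the control level, from 0.981 in fibroblast-like cells to 1.21 in bipolar-like cells. Of 461 values by member and class, 60 (13%) were at least 1.5-fold higher in aged CNV and 4 were at least 1.5-fold lower, beside 7.99% higher and 5.31% lower over all genes. Of the 60, 23 were in rod-like cells (of 46 members) and 20 in Müller glia-like cells (of 45 members), where 9.73% and 13.1% of all genes were as much higher.

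Ndufb8, a membrane-arm subunit, was at least 1.5-fold higher in aged CNV in 5 of 11 classes, and Ndufa11 in 4. Ndufb8 had 101 CPM in Müller glia-like cells of aged CNV, against 57.7 CPM in aged control, and 137 against 90.6 CPM in endothelial-like cells. Ndufv1, which binds NADH and flavin, had 92.8 CPM in rod-like cells of aged CNV, against 41.4 CPM in aged control (ratio 2.24, 1.82 to 2.76), and 55.0 against 33.5 CPM in bipolar-like cells. Ndufb9 had 241 CPM in rod-like cells of aged CNV, against 133 CPM in aged control (ratio 1.82, 1.61 to 2.05). In Müller glia-like cells Ndufa2, of thioredoxin-like fold, had 137 against 71.1 CPM (ratio 1.93, 1.63 to 2.29). In RPE-like cells Ndufb5 had 350 CPM in aged CNV and 237 CPM in aged control (ratio 1.48, 1.35 to 1.62). In macrophage/monocyte-like cells Ndufa12, an accessory subunit added late to the matrix arm, had 80.7 CPM in aged CNV and 50.9 CPM in aged control (ratio 1.59), while Ndufa1 had 49.1 CPM in aged CNV and 77.2 CPM in aged control (ratio 0.636, 0.507 to 0.800). A further lower value was that of an assembly factor: Ndufaf4, which acts early in matrix-arm assembly, had 20.7 CPM in fibroblast-like cells of aged CNV and 32.6 CPM in aged control (ratio 0.636, 0.544 to 0.744).

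In Müller glia-like cells genes spanning over 100 kb took 31.8% of UMIs in aged CNV and 38.3% in aged control, and ribosomal protein genes had 33208 and 13603 CPM. With the denominator of genes spanning at most 20 kb the summed ratio became 1.15 in Müller glia-like, 1.14 in amacrine-like and 1.28 in rod-like cells, so the first 2 fell short of 25%. With median-of-ratios scaling the amacrine-like ratio was 1.24, also short of it. Within single clusters 13 of 15 ratios of aged CNV over aged control lay above 1, among them 1.496 and 1.205 in the 2 rod-like clusters and 1.44 in the Müller glia-like cluster. The part of library composition in these differences was not tested.

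In the young mice the class sums were higher after laser in rod-like and macrophage/monocyte-like cells, but not within most of the single clusters of these classes. The summed level in rod-like cells was 6197 CPM in young CNV and 4362 CPM in young control, a ratio of 1.42 (1.40 to 1.44). Within the 3 rod-like clusters with enough cells in both young libraries the ratio was 0.941 (0.909 to 0.974), 0.886 (0.865 to 0.908) and 1.26 (1.21 to 1.32), so it lay below 1 in 2 of 3. In macrophage/monocyte-like cells it was 4552 CPM in young CNV (979 cells) and 3517 CPM in young control (106 cells), a ratio of 1.29, which is 0.37 on the log2 scale with an interval from 0.32 to 0.42. Within the 1 macrophage/monocyte-like cluster with enough cells in both, of 271 and 55 cells, it was 1.05 (0.996 to 1.12). Over all classes 10 of 23 single clusters lay above 1 and 13 below. Erythroid-like cells were lower, at 582 CPM in young CNV and 951 CPM in young control (ratio 0.612, 0.552 to 0.678), where 42.4% of all genes tested were at least 1.5-fold lower. TMM scaling shifted erythroid-like cells by -0.53 on the log2 scale relative to the class totals and gave a summed ratio of 0.882, and median-of-ratios scaling gave 0.827, so neither kept it at or below 0.8. The other 11 of 14 classes lay inside the same limits, among them Müller glia-like cells at 1.20 (1.17 to 1.24), RPE-like cells at 0.956 (0.944 to 0.968) and fibroblast-like cells at 0.942. Of 565 values by member and class, 35 (6.20%) were at least 1.5-fold higher in young CNV and 4 (0.708%) at least 1.5-fold lower, beside 6.13% higher and 7.05% lower over all genes, so the share of higher values was near the background. Of the 35, 22 were in rod-like cells (of 46 members, where 9% of all genes were as much higher) and 8 in macrophage/monocyte-like cells (of 44 members, 10.7% of all genes).

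In rod-like cells Ndufa1 had 123 CPM in young CNV, against 65.9 CPM in young control (ratio 1.87, 1.69 to 2.08). Ndufaf5, which hydroxylates Ndufs7 during assembly, had 106 against 54.6 CPM (ratio 1.94, 1.73 to 2.18). Ndufaf2, an assembly factor related in sequence to Ndufa12, ran the other way, with 90.6 CPM in young CNV and 212 CPM in young control (ratio 0.427, 0.388 to 0.469). Ndufaf2 in rod-like cells had 133 CPM in aged CNV and 186 CPM in aged control (ratio 0.713, 0.621 to 0.817), so both CNV libraries lay below both control libraries. Exons of Ndufaf2 overlap B230220B15Rik on the other strand, which had 35.2 and 92.3 CPM in rod-like cells of aged CNV and aged control, and 43.7 and 69.3 CPM in young CNV and young control. B230220B15Rik thus moved the same way, and its part in the Ndufaf2 values was not tested. In macrophage/monocyte-like cells Ndufb5 had 155 CPM in young CNV and 97.9 CPM in young control (ratio 1.58, 1.28 to 1.97), where young control had 93 UMIs of it. The rod-like cells of the 2 young libraries came mostly from different clusters, and their mean UMIs per cell were 2183 in young CNV and 1706 in young control. With the denominator of genes spanning at most 20 kb the summed ratio was 1.23 in rod-like and 1.17 in macrophage/monocyte-like cells, both short of 25%.

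Ndufa4 and Ndufa4l2 split the 2 named mural classes, leaving out mural clusters that stayed unnamed. Ndufa4 lies at chr6:11900292-11907497 (minus strand) and Ndufa4l2 at chr10:127514967-127517154 (plus strand) on mm10 in GENCODE M21, where exons of Ndufa4l2 overlap Shmt2 on the other strand. In pericyte-like cells Ndufa4l2 had 912, 568, 1064 and 1264 CPM in aged CNV, aged control, young CNV and young control, the aged control value from 33 cells. Ndufa4 had 82.9, 54.1, 124 and 122 CPM there, so Ndufa4l2 held 89.6% to 91.7% of the UMIs of the pair in every library. In smooth muscle-like cells the order was the other way round: Ndufa4 had 418, 431, 532 and 576 CPM and Ndufa4l2 had 184, 115, 152 and 123 CPM. Shmt2 stayed at 11.6 to 18.1 CPM in pericyte-like cells. In RPE-like cells Ndufa4 had 1831, 1554, 1823 and 1937 CPM while Ndufa4l2 was at most 3.11 CPM.

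Per cell, 84.8% of pericyte-like cells had a Ndufa4l2 UMI in aged CNV (73.0% to 92.8%), 90.9% in aged control, 94.6% in young CNV and 97.2% in young control (92.9% to 99.2%), by exact binomial intervals. In rod-like cells, where the gene should be absent, the shares were 0.534%, 0.0820%, 0.925% and 0.361%, at median depths of 2712, 3282, 1940 and 1327 UMIs, against 4984, 7476, 6074 and 5816 UMIs in pericyte-like cells. After every cell was thinned to 1000 UMIs the pericyte-like shares were 53.6%, 35.5%, 57.1% and 67.7%, from 56, 31, 182 and 136 cells deep enough. The level of Ndufa4l2 in pericyte-like cells differed little between the libraries with enough cells: the ratio was 0.857 (0.753 to 0.972) for aged CNV over young CNV and 0.842 (0.777 to 0.912) for young CNV over young control.

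Outside mural cells Ndufa4l2 was lower and varied. Fibroblast-like cells had 29.3, 23.1, 46.7 and 63.5 CPM of Ndufa4l2 in aged CNV, aged control, young CNV and young control, so both aged libraries lay below both young ones. The ratio of Ndufa4l2 in fibroblast-like cells was 0.363 (0.316 to 0.415) for aged control over young control and 0.628 (0.564 to 0.697) for aged CNV over young CNV. Over all libraries Ndufa4l2 ranged from 15.7 to 85.2 CPM between fibroblast-like clusters, and the part of cluster mix in these ratios was not tested. Endothelial-like cells had 4.68 CPM of Ndufa4l2 in aged CNV, 30.2 in young CNV and 11.6 in young control, and in aged control 0 of 413 cells had a UMI (exact upper bound 0.889%). The 8 pericyte markers together had 194, 73.9, 601 and 352 CPM in the same endothelial-like cells, in the order of libraries above, with all 8 detected in each library. The part of pericyte RNA in the endothelial-like values was not tested. In epithelium-like cells Ndufa4l2 had 28.5 CPM in aged CNV and 5.44 CPM in young CNV (ratio 5.23, 3.86 to 7.21), while the pericyte markers had 106 and 91.6 CPM there.

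The genes most like Ndufa4l2 in pattern, by the Pearson correlation of log2(CPM + 5) over 57 pairs of class and library among 19112 genes, were Kcne4 (0.947), Foxs1 (0.941), Gm9922 (0.933), Ednra (0.926) and Rgs5 (0.924). The pairs share libraries, and no significance is attached to these values. Kcne4, a potassium channel subunit gene, had 301, 170, 128 and 192 CPM in pericyte-like cells of aged CNV, aged control, young CNV and young control, and Rgs5, a common pericyte marker, had 6361, 6904, 8315 and 9602 CPM. Rgs5 was among the markers that named the pericyte-like clusters, so its level there is partly set by the naming. In smooth muscle-like cells Rgs5 had 5980 and 6577 CPM in aged CNV and aged control, against 2659 and 3023 CPM in young CNV and young control. A cluster with Rgs5 among its leading genes held 83 of 130 and 106 of 176 of these cells in aged CNV and aged control. The largest cluster of the young libraries, without Rgs5 among its leading genes, held 104 of 220 in young CNV and 98 of 215 in young control. The part of this cluster mix in the Rgs5 levels was not tested.

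The other complexes of oxidative phosphorylation were lower in aged libraries too. Without laser, 66 of 90 values of complex IV genes were at least 1.5-fold lower in aged control than in young control, as were 99 of 153 of ATP synthase, 49 of 81 of complex III and 15 of 35 of complex II, and the medians of the class medians were -0.80, -0.78, -0.68 and -0.50 on the log2 scale, beside -0.78 for the 36 complex I subunits. Over all genes 14.1% of values were as much lower in aged control. After laser the medians for aged CNV over young CNV were -0.67, -0.70, -0.61 and -0.37 for complex IV, ATP synthase, complex III and complex II, beside -0.55 for the complex I subunits. Sdha, the flavoprotein of complex II, had 176 and 158 CPM in RPE-like cells of aged CNV and aged control, against 96.0 and 115 CPM in young CNV and young control, while Sdhb, its iron-sulphur partner, had 140 and 136 CPM against 175 and 177 CPM. Cox8a of complex IV had 2688 and 2500 CPM in RPE-like cells of aged CNV and aged control, against 3106 and 3368 CPM in young CNV and young control. Cytosolic ribosomal protein genes, which are also short, had a median of -0.65 without laser and -0.50 after laser. Glycolysis genes had medians of -0.33 and 0.02, and targets of the hypoxia-inducible factor (HIF) had -0.33 and 0.11.

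The complex I genes of the mitochondrial genome had medians of -0.57 without laser and -0.58 after laser. At least 1.5-fold lower were 34 of 61 and 41 of 85 values, beside 14.1% and 12% over all genes. In rod-like cells mt-Nd4 had 470 and 464 CPM in aged CNV and aged control, against 953 and 969 CPM in young CNV and young control, and mt-Nd3 had 84.5 and 61.6 CPM against 254 and 266 CPM. In the deposited table the highest mitochondrial share of a cell was 19.5% to 20% in each library, so cells above about that share are not in these levels. The 10 assembly factors without an Nduf name had medians of -0.14 and -0.18, beside -0.23 and -0.18 for those named Ndufaf. Regulators of mitochondrial biogenesis lay on the other side, with medians of 0.29 and 0.39. Ppargc1a, the coactivator PGC-1α, had 71.9 and 110 CPM in RPE-like cells of aged CNV and aged control, against 42.0 and 57.7 CPM in young CNV and young control. In RPE-like cells 51.1% of all genes likewise had both aged libraries above both young ones. In the laser comparisons the medians for complexes III, IV and ATP synthase were 0.23, 0.26 and 0.22 for aged CNV over aged control, beside 0.20 for the complex I subunits and 0.42 for glycolysis genes. For young CNV over young control they were 0.04, 0.03 and 0.05, beside 0.03 for the complex I subunits and 0.06 for glycolysis genes. The HIF targets had medians of 0.11 and -0.09 in these 2 comparisons.

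**Figure D4:**
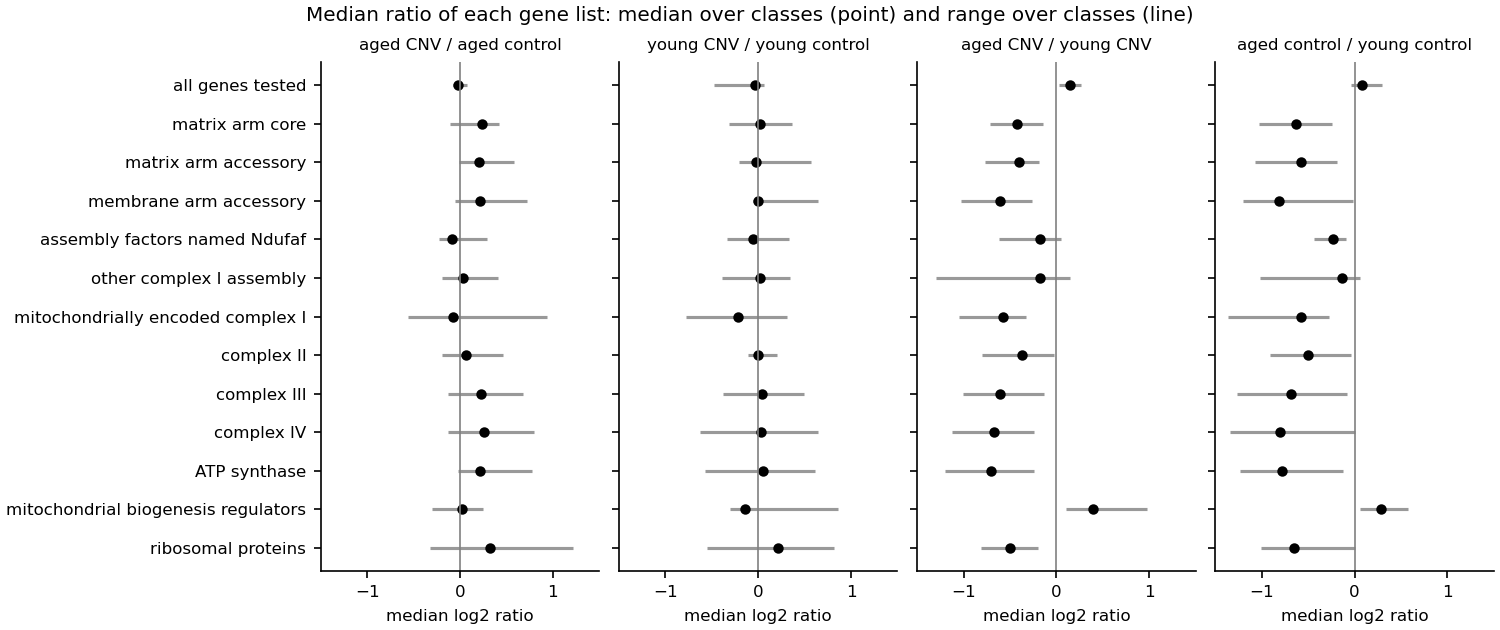
Median over classes of the class median log2 ratio for complex I roles and other gene lists in the 4 comparisons. For the age comparisons the respiratory chain and ribosomal lists lie between -0.81 and -0.37, the assembly factors between -0.23 and -0.14, and the biogenesis regulators at 0.29 and 0.39. All genes tested lie at 0.08 and 0.14.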

How the data were processed

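Droplet single-cell libraries (10x Genomics) of 4 groups of mice were measured, 1 library per group. The deposited table holds raw counts, UMIs per gene and cell, with no normalization. The submitters' processing notes name Cell Ranger, Seurat 4.1.1 and the mm10 build. No source used here states the Cell Ranger version or the strand setting. The lowest UMIs per cell (500 to 507) and the highest mitochondrial share show that cells were filtered before deposit. Columns were assigned to libraries by their prefix, and 0 per-sample columns were left unused.

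Cells needed 200 genes and at most 25% mitochondrial UMIs, which removed 0 cells. Scrublet scores above a fixed 0.2 removed 272, 246, 290 and 303 cells from aged CNV, aged control, young CNV and young control. The 2000 most variable genes, without Nduf and mitochondrial genes, gave 40 components, 20 neighbours and Leiden clusters at resolution 1. Clusters were named from at least 3 markers, by thresholds set after seeing the clusters, and 393, 197, 481 and 602 cells stayed unnamed. For each class in each library the UMIs of a gene were added up and divided by the class total (CPM). Intervals of levels are exact Poisson, of ratios exact conditional binomial and of shares Clopper-Pearson, at 95%. Classes needed 50 cells in both libraries, members 100 UMIs over both, and a call a ratio of 1.5 for a member, and for the sum a level 25% higher or at most 0.8 of the other. The statistics were tested on simulated data. Gene spans came from RefSeq and were found for 85.8% of genes, and exons came from GENCODE M21.

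The members, lists and comparisons were chosen with earlier results of these data known. Genes named in the text are the 3 most abundant members of each role, those past 1.5-fold in most classes, those with the largest ratios by the bound nearest 1 in a class, Ndufa4 and Ndufa4l2, the 5 genes most like Ndufa4l2 and up to 4 genes of another list, of which a selection is printed. Alternatives were TMM (edgeR 4.0.16) and median-of-ratios (DESeq2 1.42.0) factors on the summed counts, other UMI and fold limits, cells thinned to 1000 UMIs, means of single cells, doublets kept, cells with their own marker UMIs, and other denominators, of which those of genes up to 20 kb, without ribosomal protein genes and with Ndufb1-ps in the sum were added after seeing the data. Python 3.11.15, numpy 2.4.6, scipy 1.17.1, scanpy 1.11.5, leidenalg 0.10.2 and R 4.3.3 were used. Values of 1 member, which is part of the sums and counts, are not reported here.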

Additional observations from a re-analysis of the deposited data

Results flagged for a closer look

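Some values lay on opposite sides of 1 in the laser comparisons of the aged and the young mice; each side is 1 pair of libraries, and the differences between the ages were not tested. The summed complex I level had a ratio of 1.13 for aged CNV over aged control and 0.956 for young CNV over young control in RPE-like cells. In bipolar-like cells it was 1.21 in the aged and 0.937 in the young mice. Ndufa4, the complex IV subunit, had ratios of 1.18 in the aged and 0.942 in the young mice in RPE-like cells, and 1.12 and 0.832 in endothelial-like cells. Ndufa4l2 had ratios of 1.27 in the aged and 0.735 in the young mice in fibroblast-like cells, where the 8 pericyte markers together had 882 and 1222 CPM in aged CNV and aged control and 460 and 605 CPM in young CNV and young control. The largest fibroblast-like cluster of both control libraries had 85.2 CPM of Ndufa4l2 over all libraries. That of both CNV libraries had 15.7 CPM. The part of this cluster mix in the ratios was not tested.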

How the results depend on the processing

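No paired analysis was possible because each group has 1 library, and no library could be left out for the same reason. The counts of members and classes past the fold limits are given here in the order of the report's comparisons. For aged over young without laser (0 values higher, 213 lower) the higher count was 1 with a minimum of 20 UMIs, 2 with no minimum, 2 with means of single cells, 1 with doublets kept, 2 with cells that had their own marker UMIs and 17 with the denominator of genes up to 20 kb. The lower count was 93 with thinned cells, 96 at a 2-fold limit and 92 with the denominator up to 20 kb. The sum was lower in 8 of 9 classes here. At a 1.5-fold limit, smooth muscle-like cells (ratio 0.677) and fibroblast-like cells (ratio 0.680) no longer counted as lower. With the denominator up to 20 kb, rod-like and smooth muscle-like cells fell short of the usual limit for a lower sum. After laser (5 higher, 236 lower) the higher count was 1 with TMM factors, 10 with 20 UMIs, 12 with no minimum, 0 thinned, 2 with means of single cells, 3 with doublets kept, 2 with own UMIs, 1 at 2-fold and 22 with genes up to 20 kb, and the lower count was 128 thinned, 103 at 2-fold and 118 with genes up to 20 kb. The sums that were lower in 13 classes were lower in 6 at a 1.5-fold limit and in 5 with genes up to 20 kb. For aged CNV over aged control (60 higher, 4 lower, 3 sums higher) the higher count was 23 thinned, 1 at 2-fold and 21 with genes up to 20 kb, the lower count 8 with means of single cells, 0 at 2-fold and 7 with genes up to 20 kb, and the sums higher were 0 at 1.5-fold and 1 with genes up to 20 kb. For young CNV over young control (35 higher, 4 lower, 2 sums higher, 1 lower) the higher count was 20 with own UMIs, 1 at 2-fold and 9 with genes up to 20 kb. The lower count was 25 with 20 UMIs, 34 with no minimum, 12 with means of single cells, 2 at 2-fold and 7 with genes up to 20 kb. The sums higher were 1 thinned, 1 with means of single cells, 1 with own UMIs and 0 at 1.5-fold or with genes up to 20 kb, and the sums lower were 0 with TMM factors. Ndufa1 in macrophage/monocyte-like cells of young CNV over young control changed sign to -0.43 on the log2 scale with means of single cells. The cause was not tested for any of these. RPE-like cells kept the highest sum in 4 libraries in the settings run. Counts limit the members of small classes, and single libraries limit every difference.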

Other observations

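Ndufa4l2 was also high in clusters of mural and vascular cells that the marker rules left unnamed. A cluster of 143 cells led by Rgs5, Myh11 and Higd1b had 1080 CPM of Ndufa4l2, beside 1023 and 1348 CPM in the 2 pericyte-like clusters of 348 and 69 cells. Another unnamed cluster of 61 cells led by Myh11 and Rgs5 had 586 CPM. Ndufa4 had 253 CPM in the cluster of 143 cells and 489 CPM in that of 61 cells, below Ndufa4l2 in each. An unnamed cluster of 16 cells led by Myh11 and Myoc had 291 CPM of Ndufa4l2 and 470 CPM of Ndufa4. Smooth muscle was the best-scoring class for each of these clusters. Clusters led by endothelial genes had 569 CPM (108 cells, with Fabp4 and Ly6c1) and 324 CPM (84 cells, with Plvap and Kdr). The clusters of 16, 61, 84 and 108 cells were flagged as possible mixtures of classes. Their UMIs per cell were 3.87, 3.30, 3.22 and 2.12 times the library median, by the median over cells. Pericyte scored second in those of 61, 84 and 108 cells. The part of mixed cells in these levels was not tested. The smooth muscle-like clusters had 49.2 to 265 CPM of Ndufa4l2.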
